A study of Mus musculus with 6 samples.

Results

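The nuclear genes for subunits of the mitochondrial respiratory chain and ATP synthase were examined in livers of mice that lack SPNS1, a transporter of lysolipids in the lysosome. Members were the rows of the deposited gene table that are annotated as protein coding and whose symbols carry the names of these subunits, and 86 of 54532 rows met this rule. They were assigned to complexes by name, 37 to complex I (*Nduf* genes), 4 to complex II (*Sdh*), 9 to complex III (*Uqcr* and *Cyc1*), 18 to complex IV (*Cox*) and 18 to complex V (*Atp5*). The names do not follow the structures everywhere. *Ndufa4* was counted with complex I although its product is found in complex IV, and *Atp5s* encodes a factor that is not a structural subunit of ATP synthase.

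The series holds 6 liver RNA-Seq libraries, each from 1 mouse, of which 3 are g*Spns1*-cKO and 3 are control. The g*Spns1*-cKO animals carried floxed *Spns1* alleles and a tamoxifen-dependent Cre at the Rosa26 locus, which is active in the whole body and not in hepatocytes alone. The methods describe 50 mg/kg tamoxifen on postnatal days 11, 13 and 15, deletion of exon 3, and floxed littermates without Cre as controls, whereas the sample labels call the controls wild type. The methods give a C57BL/6 background for all mice. The age of these mice at collection was not given in the sources used here.

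The respiratory chain of the inner mitochondrial membrane passes electrons from NADH (complex I) or succinate (complex II) through coenzyme Q, complex III and cytochrome c to oxygen at complex IV, and the proton gradient that complexes I, III and IV build drives ATP synthesis at complex V. Most subunits are encoded in the nucleus and imported, while a small set, including the membrane core of complex I and the catalytic core of complex IV, is encoded by mitochondrial DNA. Complex II is nuclear in full. Hepatocytes are rich in mitochondria and use the chain to oxidise fatty acids and to supply ATP for glucose and urea synthesis.

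Libraries held between 30350002 and 35295611 counts, and a floor of 3 counts corresponded to between 0.0763 and 0.118 CPM (counts relative to the library size after TMM factors, which adjust that size so that most genes do not differ). These factors separated the groups, at 0.834 to 0.873 in control and 1.16 to 1.18 in g*Spns1*-cKO libraries. The 100 genes with the most counts held 41.9% to 42.4% of control counts and 37.2% to 37.6% of g*Spns1*-cKO counts. With scaling by library size alone, the 15449 genes tested had a median log2 fold change of 0.46, against 0.01 with TMM. Changes are therefore also given relative to all genes or to the chain itself. *Spns1* had 35.8, 50.7 and 34.6 CPM in control and 17.8, 30.6 and 17.7 CPM in g*Spns1*-cKO livers, so the groups did not overlap. Its log2 fold change was -0.87 (SE 0.25), with an adjusted p of 0.030 by edgeR's quasi-likelihood test and p = 0.1 by a two-sided exact permutation test, the smallest that 3 against 3 animals allow. The edgeR adjusted p was above 0.05 under 4 of the other scalings (0.0532 to 0.212, the highest with library size only) and without control replicate 2, g*Spns1*-cKO replicate 1 or g*Spns1*-cKO replicate 3 (0.0785 to 0.0910).

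The RNA levels of markers of several cell types differed between the groups. Calls are at an edgeR adjusted p under 0.05 with TMM scaling unless stated. Over all genes tested 20.5% were called lower and 21.3% higher with TMM, and 6.29% and 47.2% with library size only. The summed level of 9 hepatocyte markers, of which *Alb* was the highest, was 114063 to 131155 CPM in control and 65772 to 78793 CPM in g*Spns1*-cKO livers, and 6 of the 9 were called lower (3 with library size only, with 1 called higher). The 10 macrophage markers summed to 186 to 304 CPM in control and 814 to 1174 CPM in g*Spns1*-cKO livers, led by *Lyz2*, and all 10 were called higher. Markers of stellate cells (7 of 9 called higher, 200.1 to 235 against 548 to 588 CPM, led by *Dcn*), endothelial cells (4 of 7, 205 to 220.0 against 271 to 313 CPM, led by *Clec4g*) and cholangiocytes (6 of 6, 44.1 to 62.8 against 172 to 280.2 CPM, led by *Spp1*) also stood higher. Lymphocyte markers, led by *Nkg7*, had 1 call in each direction among 8 (4.34 to 5.65 against 6.02 to 7.01 CPM), and both tested neutrophil markers, with *S100a9* the highest, were called higher (2.03 to 3.89 against 4.81 to 8.92 CPM). Erythroid markers, led by *Hbb-bs*, had 2 called higher and 1 lower of 5 (132 to 155 against 83.3 to 192 CPM), and none of 4 tested cycling markers, led by *Birc5*, was called (3.08 to 6.59 against 2.34 to 11.4 CPM). Striated muscle markers, led by *Myh4*, reached at most 0.249 CPM, and the 4 testis markers, *Ldhc*, *Prm1*, *Prm2* and *Tnp1*, were at 0 in every library. The part of these shifts in the results on the chain was not tested. In whole liver, fewer cells of a type and less RNA per cell cannot be told apart.

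The promoters of 5 members are shown because the comparisons turn on them. *Uqcr11*, *Ndufs6* and *Ndufa3* were called lower under every scaling tried, *Cox6a1* was the member with the highest level per length in complex IV, and *Cox7a1* was the member called higher with TMM scaling. Each sequence is the 250 bases upstream of the RefSeq start (GRCm38.p6), 5′ to 3′ on the strand of the gene. Capitals mark matches to an ETS motif (CCGGAAG, as bound by GABPA) or to the core of an NRF1 site (GCGCATGC), each searched on both strands.
*Uqcr11* (chr10:80406822-80407071, minus strand): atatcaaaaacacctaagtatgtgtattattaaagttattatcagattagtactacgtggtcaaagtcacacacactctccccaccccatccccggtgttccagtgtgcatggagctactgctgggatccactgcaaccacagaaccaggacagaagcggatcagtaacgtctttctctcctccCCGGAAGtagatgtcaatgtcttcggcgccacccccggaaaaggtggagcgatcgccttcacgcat
*Ndufs6* (chr13:73328483-73328732, minus strand): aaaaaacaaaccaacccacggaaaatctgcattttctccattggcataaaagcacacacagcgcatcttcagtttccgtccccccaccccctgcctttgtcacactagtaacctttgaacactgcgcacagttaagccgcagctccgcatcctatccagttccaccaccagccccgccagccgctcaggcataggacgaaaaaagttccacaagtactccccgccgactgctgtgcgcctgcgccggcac
*Ndufa3* (chr7:3617123-3617372, plus strand): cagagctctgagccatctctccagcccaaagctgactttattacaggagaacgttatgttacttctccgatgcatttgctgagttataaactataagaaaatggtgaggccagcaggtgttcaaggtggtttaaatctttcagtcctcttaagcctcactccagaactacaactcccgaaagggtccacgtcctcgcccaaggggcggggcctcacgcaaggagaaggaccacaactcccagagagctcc
*Cox6a1* (chr5:115348959-115349208, minus strand): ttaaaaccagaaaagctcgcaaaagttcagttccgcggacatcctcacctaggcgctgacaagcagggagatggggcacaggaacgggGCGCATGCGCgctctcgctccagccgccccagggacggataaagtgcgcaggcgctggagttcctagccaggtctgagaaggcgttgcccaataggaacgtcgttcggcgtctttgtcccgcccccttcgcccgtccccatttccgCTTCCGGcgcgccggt
*Cox7a1* (chr7:30183921-30184170, plus strand): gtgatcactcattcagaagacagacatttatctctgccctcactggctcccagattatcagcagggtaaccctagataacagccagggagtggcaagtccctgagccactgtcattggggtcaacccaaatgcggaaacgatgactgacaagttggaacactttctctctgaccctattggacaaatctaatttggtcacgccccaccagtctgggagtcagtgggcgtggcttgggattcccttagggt

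RefSeq promoters were matched for 68 of the 85 member symbols. The NRF1 motif was in 8 of the 68 (11.8%) and in 2.56% of the 27025 genes with a promoter, and its 2 orientations overlap where both match, as in *Cox6a1*. The ETS motif was in 12 members (17.6%) and in 7.83% of all genes. The ERR half-site AAGGTCA was in 5 members (7.35%) and 4.70% of genes, and the YY1 motif AAGATGGC was in 1 member and 1.83% of genes. Among members called lower with TMM scaling, 4 of 37 matched promoters held the NRF1 motif and 8 of 37 the ETS motif, against 4 of 29 for each in members tested and not called lower. The ERR half-site was in 1 of 37 and 4 of 29, and the YY1 motif in 1 of 37 and 0 of 29. The *Uqcr11* promoter held 1 ETS match, that of *Cox6a1* held matches to the NRF1 and the ETS motif, and these letters were not found in the windows of *Ndufs6*, *Ndufa3* or *Cox7a1*.

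Of the 86 members, 80 passed the filter on low counts and were tested. With TMM scaling, 41 of the 80 were lower in g*Spns1*-cKO livers and 1, *Cox7a1*, was higher by edgeR's quasi-likelihood test (adjusted p under 0.05, with the adjustment over the whole table). Across all genes tested 20.5% were called lower and 21.3% higher. The median log2 fold change of the tested members was -0.36, and with scaling by library size only it was 0.08, with 3 members called lower and 11 higher, so the direction of most members depended on the scaling. In that fit 6.29% of all genes were called lower and 47.2% higher. Relative to all genes, the members' median log2 fold change was -0.37 under TMM, library size only and upper-quartile scaling. These scalings differ by a single factor per library, which moves all genes nearly alike, so this value could hardly differ between them. With scaling along expression level, described below, it was 0.0067. All 3 g*Spns1*-cKO libraries were below all 3 control libraries for 52 of the 80 members in TMM-scaled CPM and above them for 1, while the same held for 26.9% and 27.1% of all genes.

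**Figure D1:**
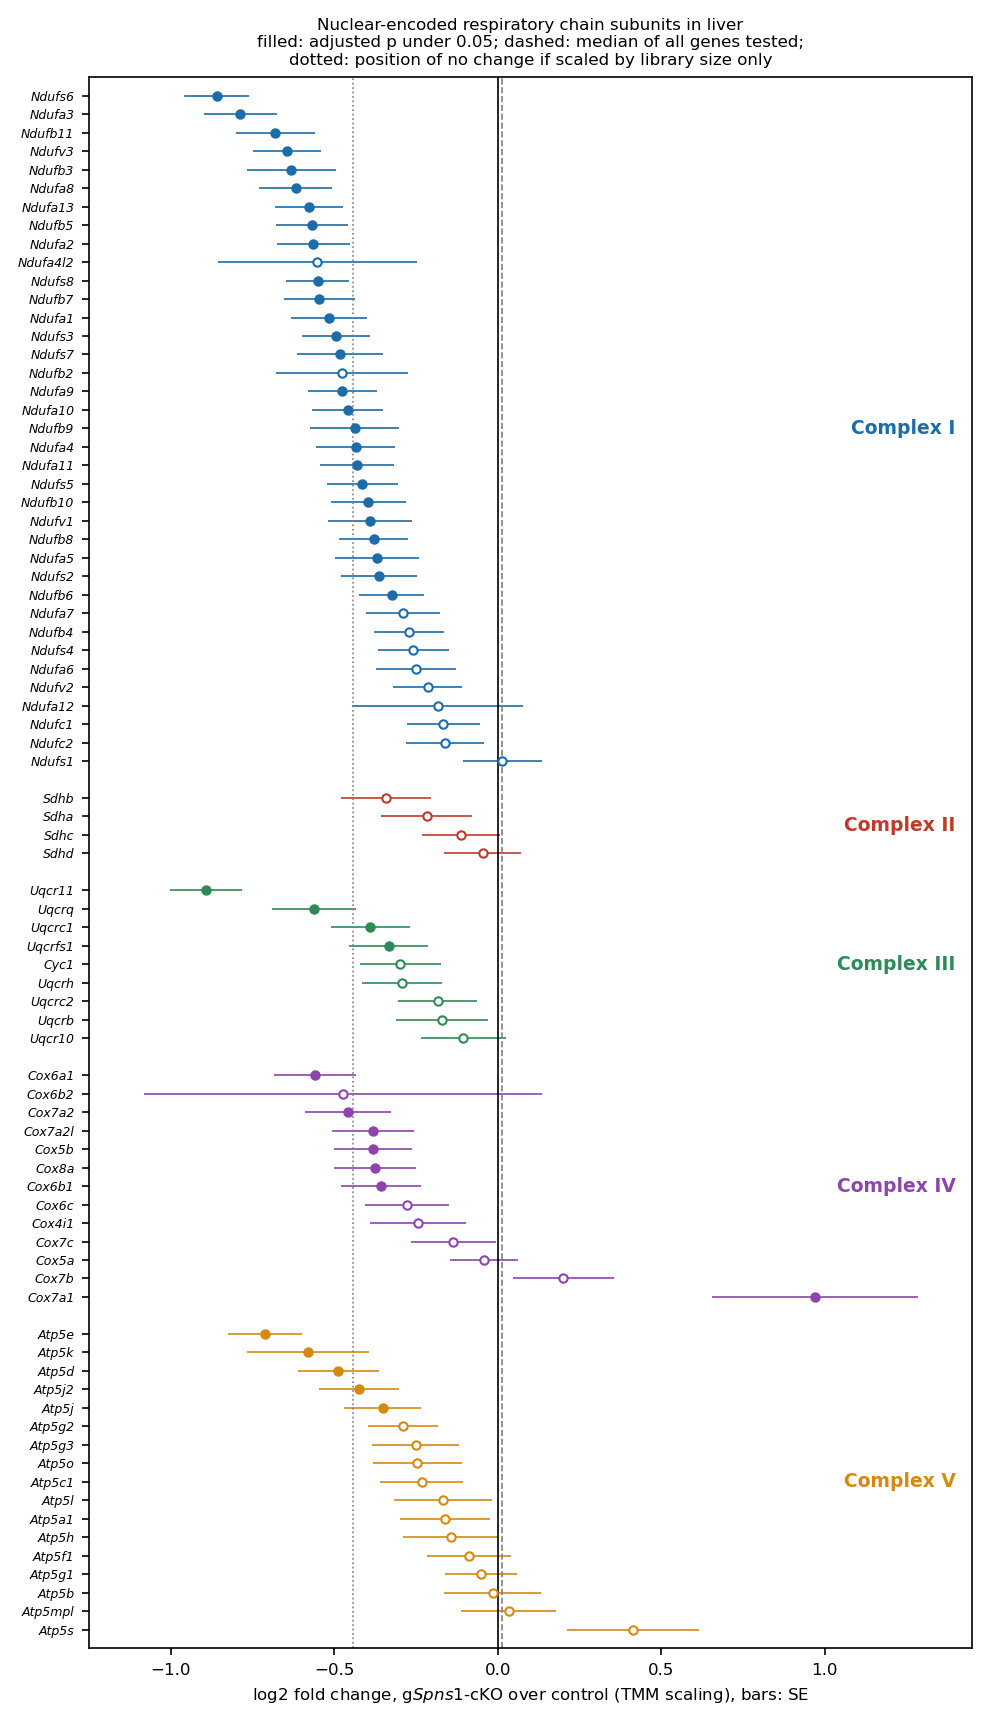
Log2 fold change of each of the 80 tested members (points; bars show SE; 3 mice per group), ordered within complexes I to V, with filled points for an adjusted p under 0.05. Complex I holds 26 filled points, all left of 0, complex II holds none, and *Cox7a1* alone is filled on the right; the dotted line marks where no change would lie with scaling by library size only.

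Genes of like expression level lay about as low as the members. Members were highly expressed, with 57 of the 80 in the highest of 10 equal classes of genes by mean level (95.1 CPM or more) and 17 in the class below it. In that highest level class the genes had a median log2 fold change of -0.38, and 48.7% were called lower and 5.51% higher, close to the members' 51.25% and 1.25%. In the lowest class the median was 0.50. When each library was scaled with a curve along expression level, which sets genes of like level to a median of about 0, 11 members were called lower and 5 higher and their median was -0.00019. In this fit 17.4% of all genes were called lower and 18.6% higher. Within that fit complex I still had a median of -0.16 with 9 of 37 called lower and none higher, while the medians of complexes II (0.28), III (0.10), IV (0.06) and V (0.19) were above 0. Against genes of like level the median of the members was thus close to 0, while its complexes lay on both sides of 0.

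**Figure D2:**
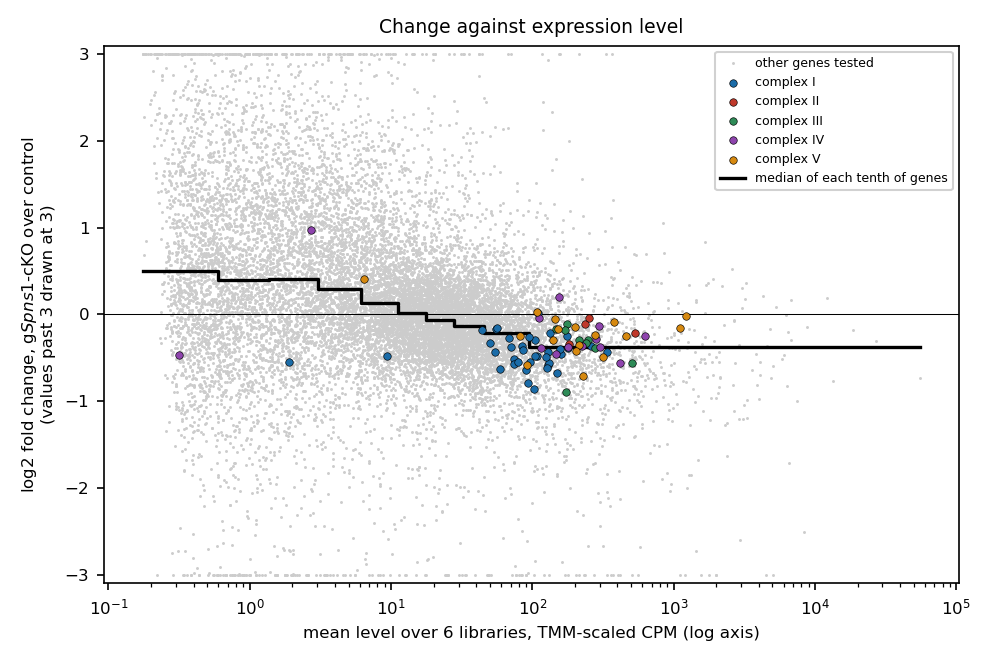
Log2 fold change (TMM scaling; values past 3 drawn at 3) against mean level in TMM-scaled CPM on a log axis for all 15449 genes tested (grey) and the members by complex (colours). The black steps, the median of each of 10 equal classes of genes, fall from 0.50 in the lowest to -0.38 in the highest class, where 57 members lie.

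Shares of the chain's own counts need no scaling between libraries. Complex I took 26.5%, 26.9% and 26.5% of the members' counts in control and 24.6%, 24.0% and 24.2% in g*Spns1*-cKO livers. Complex III took 14.3%, 14.5% and 14.04% against 13.5%, 13.5% and 13.3%. For both complexes every g*Spns1*-cKO library lay below every control library. Complex II took 7.71%, 7.19% and 7.56% in control and 8.11%, 8.03% and 8.35% in g*Spns1*-cKO livers. Complex V took 33.4%, 32.8% and 33.5% against 35.5%, 35.8% and 35.8%. Both stood higher in every g*Spns1*-cKO library than in any control library. Complex IV, at 18.4% ± 0.242 (SD, n = 3) in the controls and 18.4% ± 0.155 (SD, n = 3) after deletion of *Spns1*, overlapped between groups.

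Complexes I and III remained lower and II and V higher, with no overlap, when the *Atp5a1* and *Atp5b* counts, the highest of complex V, were left out. Complex IV then stood at 21.0%, 21.7% and 21.4% in control and 21.8%, 22.2% and 22.0% in g*Spns1*-cKO livers. With each member weighted equally, as the mean log2 CPM minus that of the chain, the difference between groups was -0.11 for complex I, -0.03 for complex III, 0.14 for complex II, 0.15 for complex IV and 0.10 for complex V, and none of the 5 overlapped. Without the low-level *Cox7a1* the difference was 0.07 for complex IV, still without overlap, and -0.02 for complex III, where the groups then overlapped, while complexes I (-0.09), II (0.16) and V (0.12) kept their directions without overlap. An exact permutation test of 3 against 3 mice cannot go below p = 0.1, and none was used on these shares. The members together held 1.54%, 1.417% and 1.44% of all counts in control and 1.501%, 1.74% and 1.62% in g*Spns1*-cKO libraries, which overlapped.

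**Figure D3:**
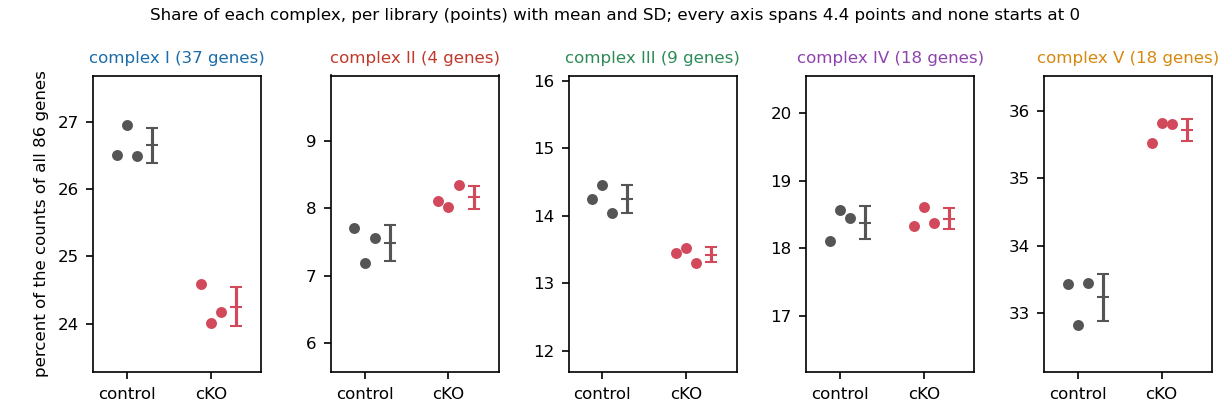
Percent of the counts of all 86 members that fell on each complex, per library (points) with mean and SD (whiskers, n = 3), on axes that do not start at 0 and span the same width. Complexes I and III lie lower in g*Spns1*-cKO livers (means 26.6% to 24.3% and 14.3% to 13.4%), II and V higher (7.49% to 8.16% and 33.2% to 35.7%), and IV overlaps.

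Complex I, which oxidises NADH, had the lowest median of the 5 complexes with TMM scaling. Of its 37 members 26 were called lower and none higher, at a median log2 fold change of -0.44, or 0.45 below the median of all genes, and 30 had all g*Spns1*-cKO libraries below all controls. Over all genes 20.5% were called lower and 21.3% higher, and 26.9% had all g*Spns1*-cKO libraries below all controls. In the highest level class 48.7% of genes were called lower. The median of complex I became 0.01 with library size only, with 2 members called lower and 1 higher. In that fit 6.29% of all genes were called lower and 47.2% higher, at a median of 0.46. Among the 7 nuclear core subunits that carry the flavin and iron-sulfur clusters or line the quinone site, 5 were called lower and none higher (median -0.39), against none lower and 1 higher with library size only (median 0.05).

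*Ndufs6* (chr13:73319838-73328542, minus strand), a zinc-binding accessory subunit, had 3615, 4106 and 3489 counts in control and 2705, 2788 and 2845 in g*Spns1*-cKO livers. Its TMM-scaled levels were 128, 133 and 138 CPM against 75.1, 72.6 and 72.3 CPM, and the groups were far apart on either scale. The log2 fold change was -0.86 (SE 0.10, adjusted p = 0.000132), and -0.42 with library size only (adjusted p = 0.00450). The processed pseudogene *Ndufs6b*, close in sequence to *Ndufs6*, had 110, 124 and 113 counts against 61, 78 and 83 and was called lower too (-1.08, adjusted p = 0.00274). Reads of the 2 genes may not be told apart in full, but the pseudogene held few counts beside *Ndufs6*.

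*Ndufa3* (chr7:3617373-3620327, plus strand), an accessory subunit of the membrane arm, had 119, 106 and 129 CPM in control and 70.4, 69.98 and 64.9 CPM in g*Spns1*-cKO livers. Here too no library of one group reached the other. The log2 fold change was -0.79 (SE 0.11, adjusted p = 0.000409), and -0.34 with library size only (adjusted p = 0.0184). *Ndufb11*, another accessory subunit of the membrane arm, stood at 184, 184 and 180.4 CPM against 98.4, 122 and 121 CPM. It differed by -0.68 (SE 0.12, adjusted p = 0.00147), but by -0.24 with library size only (adjusted p = 0.123). *Ndufa4* had the highest level per length of the group (242 FPKM, the deposited level per gene length and library depth, on average over the 6 libraries, against a complex I median of 69.8). Its levels of 398, 365 and 403 CPM in control and 275, 299 and 288 CPM in g*Spns1*-cKO livers did not overlap, with a log2 fold change of -0.43 (SE 0.12, adjusted p = 0.0157) that became 0.01 with library size only. Its adjusted p was above 0.05 without control replicate 3 (0.0567) or g*Spns1*-cKO replicate 3 (0.0630).

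The member of complex I closest to no change was *Ndufs1*, the largest of the iron-sulfur core subunits. It had 124, 94.6 and 106 CPM in control and 107, 109 and 112 CPM in g*Spns1*-cKO livers, so the groups overlapped. The log2 fold change was 0.01 (SE 0.12, adjusted p = 0.939), and 0.46 with library size only (adjusted p = 0.00877). *Ndufa4l2*, a paralogue of *Ndufa4* known as a hypoxia-induced gene, had only 71, 85 and 38 counts in control and 67, 59 and 49 in g*Spns1*-cKO livers (log2 fold change -0.55, SE 0.30, adjusted p = 0.171).

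**Figure D4:**
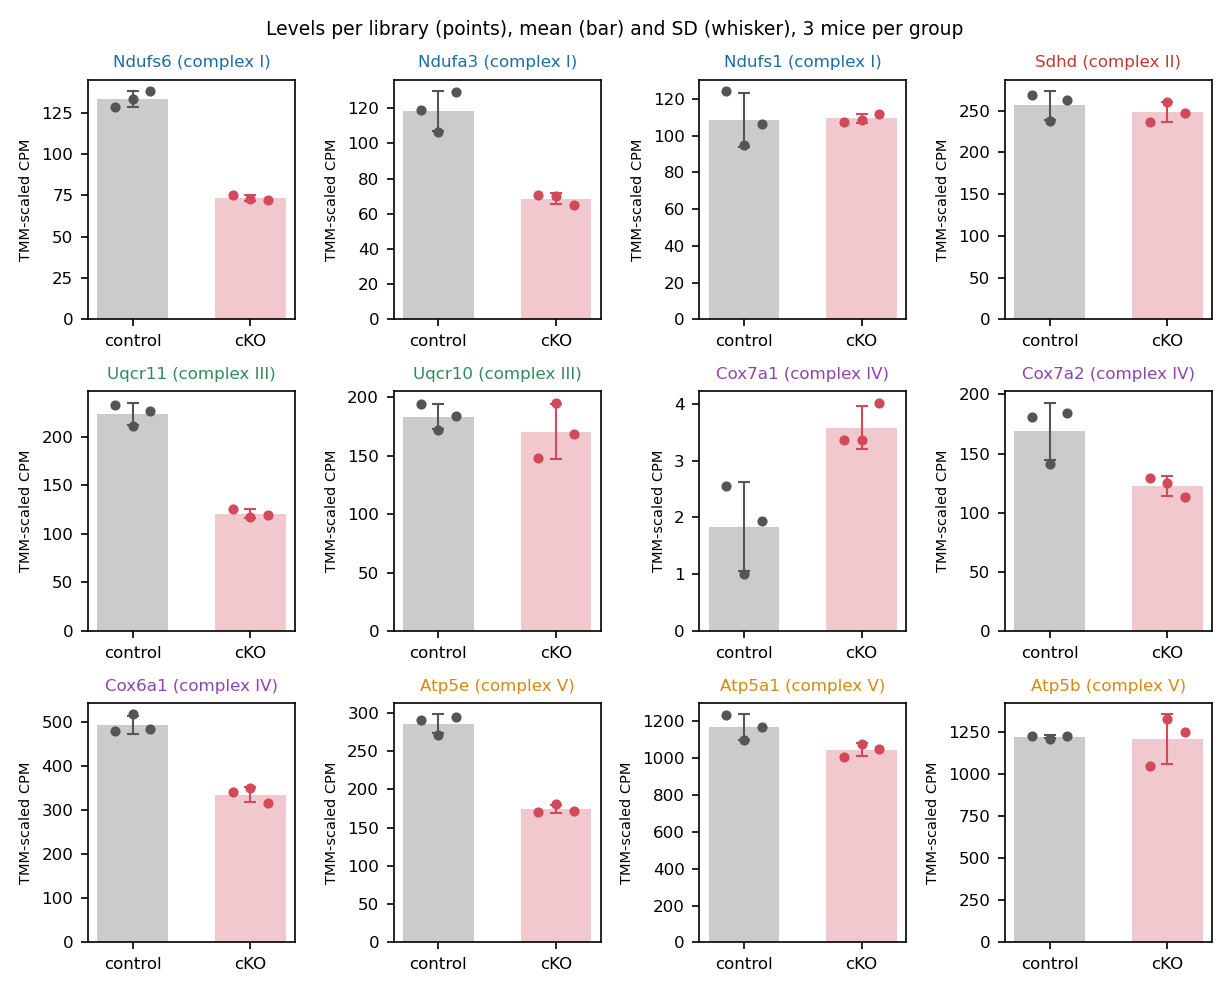
TMM-scaled CPM of 12 members per library (points) with mean (bar) and SD (whisker, n = 3); each axis starts at 0 and has its own range. *Ndufs6*, *Ndufa3*, *Uqcr11*, *Cox6a1*, *Cox7a2* and *Atp5e* lie lower and *Cox7a1* higher in all 3 g*Spns1*-cKO livers, *Ndufs1*, *Sdhd*, *Uqcr10* and *Atp5b* overlap, and *Atp5a1* lies lower without being called.

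Complex II links the citric acid cycle to the chain as succinate dehydrogenase. None of its 4 members was called in either direction with TMM scaling, and in all 4 the groups overlapped. Over all genes 20.5% were called lower and 21.3% higher in that fit. The median log2 fold change of the 4 members was -0.16, from -0.34 for *Sdhb*, the iron-sulfur subunit, to -0.05 for *Sdhd*, a membrane anchor. *Sdhd* had 269, 237 and 263 CPM in control and 237, 260.3 and 247 CPM in g*Spns1*-cKO livers (SE 0.12, adjusted p = 0.780), and also the highest level per length of the complex, at 203 FPKM. Its log2 fold change was 0.40 with library size only (adjusted p = 0.0156), and 2 of the 4 members were then called higher, as were 47.2% of all genes.

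Complex III passes electrons from reduced coenzyme Q to cytochrome c. Of its 9 members 4 were called lower with TMM scaling, at a median of -0.30, and 6 had groups without overlap. Over all genes 20.5% were called lower, and 26.9% had all g*Spns1*-cKO libraries below all controls. In the highest level class 48.7% of genes were called lower. With library size only 1 of the 9 members was called lower and none higher, at a median of 0.15. In that fit 6.29% of all genes were called lower and 47.2% higher. *Uqcr11* (chr10:80402997-80406830, minus strand), one of its smallest subunits, had the largest decrease of all members tested. It had 6560, 6514 and 5738 counts in control and 4528, 4486 and 4687 in g*Spns1*-cKO livers, or 233, 211 and 227 CPM against 126, 117 and 119 CPM. Each control library exceeded each g*Spns1*-cKO library in raw counts as in scaled levels. The log2 fold change was -0.89 (SE 0.11, adjusted p = 0.000195), and -0.45 with library size only (adjusted p = 0.00531).

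*Uqcrq*, another small subunit, stood at 597, 611 and 596 CPM in control and 393, 437 and 391 CPM in g*Spns1*-cKO livers, without overlap (-0.56, SE 0.13, adjusted p = 0.00575, and -0.12 with library size only, adjusted p = 0.452). The core protein gene *Uqcrc1* stood at 319, 323 and 296 CPM against 223, 257 and 237 CPM, also without overlap. Its log2 fold change of -0.39 (SE 0.12, adjusted p = 0.0253) turned to 0.05 with library size only, and its adjusted p was above 0.05 without control replicate 1, control replicate 2 or g*Spns1*-cKO replicate 3 (0.0552 to 0.0922). *Uqcrfs1*, which encodes the Rieske iron-sulfur protein, was the remaining call (-0.33, adjusted p = 0.0467). It was at 0.11 with library size only and was not called there, nor with upper-quartile, level-dependent, length-dependent or chain-total scaling, and 0 of the 6 fits without 1 library called it. *Uqcr10* had the highest level per length (300.1 FPKM) and was also closest to no change, at 195, 172 and 184 CPM against 148, 195 and 169 CPM, with overlap (-0.11, SE 0.13, adjusted p = 0.547).

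Complex IV, cytochrome c oxidase, has several subunits with forms that are used in some tissues only. Of its 18 members 13 were tested, and with TMM scaling 6 were called lower and 1 higher, at a median of -0.36. Over all genes 20.5% were called lower and 21.3% higher, and in the highest level class 48.7% and 5.51%. Scaled by library size only, none of the 13 members was called lower and 3 higher, at a median of 0.09. In that fit 6.29% of all genes were called lower and 47.2% higher. *Cox6a1*, the form used in liver, had the highest level per length of the complex (585 FPKM). It had 481, 517 and 484 CPM in control and 341, 350 and 315 CPM in g*Spns1*-cKO livers, without overlap (-0.56, SE 0.12, adjusted p = 0.00528, and -0.12 with library size only). *Cox5a*, closest to no change, had 115, 118 and 105 CPM against 106, 111 and 111 CPM, with overlap (-0.04, SE 0.10, adjusted p = 0.773), and 0.40 with library size only (adjusted p = 0.00973).

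*Cox7a1* (chr7:30184144-30186078, plus strand), the form of subunit VIIa found in heart and skeletal muscle, was the member called higher. It had 72, 31 and 49 counts in control and 121, 129 and 158 in g*Spns1*-cKO livers, or 2.56, 1.01 and 1.93 CPM against 3.36, 3.36 and 4.02 CPM. The groups did not overlap, and the level was low in both. The log2 fold change was 0.97 (SE 0.31, adjusted p = 0.0303). The adjusted p was above 0.05 without control replicate 2 (0.0730), control replicate 3 (0.0697) or g*Spns1*-cKO replicate 3 (0.103), and with level-dependent scaling (0.160). Markers of striated muscle were near 0 in all libraries, as given above. Macrophages, stellate cells, endothelial cells, cholangiocytes and neutrophils had most or all of their tested markers called higher in g*Spns1*-cKO livers. The part of these cell types in this result was not tested.

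*Cox7a2*, the form of subunit VIIa used in liver, had 181, 141 and 184 CPM in control and 130, 125 and 114 CPM in g*Spns1*-cKO livers, without overlap (-0.46, SE 0.13, adjusted p = 0.0178, and -0.01 with library size only). Its adjusted p was above 0.05 without control replicate 3 (0.0672) or g*Spns1*-cKO replicate 3 (0.0828). Per 1 *Cox7a2* count there were 0.0141, 0.00712 and 0.0105 *Cox7a1* counts in control and 0.0259, 0.0268 and 0.0354 in g*Spns1*-cKO livers, so *Cox7a2* was by far the main form in both groups. The ratio was higher by 1.51 on the log2 scale in g*Spns1*-cKO livers, a description of a member called higher set against one called lower. *Cox7a2l* encodes a related protein described as joining complexes III and IV into supercomplexes, which was not examined in these mice. The gene was called lower (-0.38, adjusted p = 0.0320, but 0.06 with library size only). Its adjusted p was 0.0804 to 0.0966 without control replicate 2, control replicate 3, g*Spns1*-cKO replicate 1 or g*Spns1*-cKO replicate 3. Its ratio to *Cox7a2* overlapped between groups.

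The other tissue-restricted forms were at or near the floor. *Cox4i2* had 4, 4 and 0 counts in control and 10, 5 and 6 in g*Spns1*-cKO livers. *Cox8b*, a heart and muscle form, had 4, 0 and 1 against 7, 12 and 5 counts, and *Cox6a2*, likewise a heart and muscle form, had 1, 2 and 1 against 2, 0 and 0. These 3 were not tested because their counts did not pass the filter. *Cox6b2*, a testis form, was tested at 5, 15 and 11 against 10, 4 and 16 counts, with overlap (-0.47, SE 0.61, adjusted p = 0.562). The testis forms *Cox7b2* and *Cox8c* and a second *Atp5o* row had no count in any library, which leaves room for up to 3 counts each, and these were the remaining 3 members that could not be tested.

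Complex V, ATP synthase, held the largest share of the chain's counts. With TMM scaling 5 of its 17 tested members were called lower and none higher, at a median of -0.23, and 8 had all g*Spns1*-cKO libraries below all controls. Over all genes, 20.5% were called lower and 21.3% higher, and 26.9% had all g*Spns1*-cKO libraries below all controls. With library size only, 5 members were called higher and none lower, at a median of 0.21. In that fit 47.2% of all genes were called higher and 6.29% lower, at a median of 0.46. With TMM the members called lower were *Atp5e*, *Atp5k*, *Atp5d*, *Atp5j2* (-0.43) and *Atp5j* (-0.35). Of the 6 fits without 1 library 4 called *Atp5j2* and 1 called *Atp5j*. *Atp5e*, which encodes the epsilon subunit of the central stalk, had 291, 271 and 294 CPM in control and 170.1, 181 and 172 CPM in g*Spns1*-cKO livers, without overlap (-0.71, SE 0.11, adjusted p = 0.000819, and -0.27 with library size only, adjusted p = 0.0623). *Atp5d*, the delta subunit of the same stalk, had 352, 379 and 368 CPM against 252, 286 and 246 CPM, also without overlap (-0.49, SE 0.12, adjusted p = 0.00996). The adjusted p was 0.0582 without g*Spns1*-cKO replicate 3, and the log2 fold change was -0.04 with library size only (adjusted p = 0.782).

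*Atp5k*, which encodes subunit e of the membrane part, had 129, 74.4 and 123 CPM in control and 74.6, 71.6 and 72.1 CPM in g*Spns1*-cKO livers. Control replicate 2 lay within the g*Spns1*-cKO range, so the groups overlapped although the gene was called (-0.58, SE 0.19, adjusted p = 0.0327). The adjusted p lay between 0.0699 and 0.101 when any 1 library other than control replicate 2 was left out. Nor was *Atp5k* called with library size only, upper-quartile, level-dependent, length-dependent or chain-total scaling. The catalytic subunits of the F1 head were the most abundant members in CPM. *Atp5a1*, the alpha subunit and the highest level per length of the complex (349 FPKM), had 1235, 1099 and 1170 CPM in control and 1008, 1077 and 1049 CPM in g*Spns1*-cKO livers. No g*Spns1*-cKO library reached the controls, yet the difference was not past the threshold (-0.16, SE 0.14, adjusted p = 0.374). *Atp5b*, the beta subunit, had 1230, 1213 and 1230 CPM against 1048, 1332 and 1252 CPM, with overlap (-0.02, SE 0.15, adjusted p = 0.941, and 0.43 with library size only, adjusted p = 0.0325).

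Of the 5 F1 genes in the table, 2 were called lower and none higher with TMM (median -0.23), and none lower and 1 higher with library size only (median 0.21). Over all genes 20.5% were called lower and 21.3% higher with TMM, and 6.29% and 47.2% with library size only. *Atp5g1*, *Atp5g2* and *Atp5g3* encode the same mature c subunit of the rotor ring with different import sequences. They stood at 152, 146 and 141 CPM against 140, 152 and 132 CPM (*Atp5g1*), 158, 149 and 155 against 118, 129 and 132 CPM (*Atp5g2*) and 552, 462 and 485 against 413, 445 and 402 CPM (*Atp5g3*). None of the 3 was called (adjusted p of 0.738, 0.0502 and 0.155), and the log2 fold change of *Atp5g1* was -0.05 with TMM and 0.39 with library size only.

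Scaling each library by the summed counts of the 86 members asked which members moved against the chain as a whole. In this fit 6 members were called lower and 3 higher, while 7.55% of all genes were called lower and 34.7% higher. The members called lower were *Uqcr11* (-0.58), *Ndufs6* (-0.56), *Ndufa3* (-0.48), *Atp5e* (-0.41), *Ndufb11* (-0.38) and *Ndufv3* (-0.34), an accessory subunit beside the flavin site. Those called higher were *Cox7a1* (1.29), *Atp5s* (0.70) and *Cox7b* (0.51), the last a subunit of complex IV. *Cox7b* had 166, 112 and 150 CPM in control and 145, 173 and 173 CPM in g*Spns1*-cKO livers with TMM scaling, so the groups overlapped there. *Uqcr11*, *Ndufs6* and *Ndufa3* were called lower under TMM and each of the 7 other scalings compared, and no member was called higher under all of them.

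**Figure D5:**
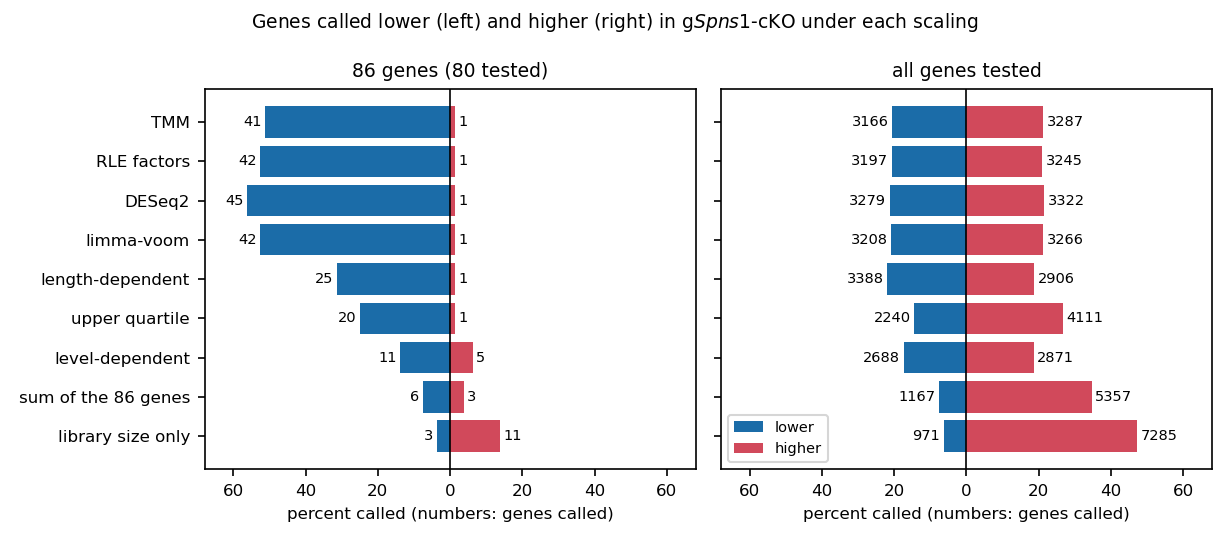
Percent of genes called lower (blue, left) and higher (red, right) in g*Spns1*-cKO livers under 9 scalings or tools, for the 80 tested members (left panel) and all genes tested (right panel); numbers are genes called. The members go from 41 lower and 1 higher with TMM to 3 lower and 11 higher with library size only, while the balance over all genes shifts the same way.

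Short and long coding sequences had similar shares of calls. Of 46 members with under 450 coding bases 24 were called lower (median -0.37), of 22 with 450 to 899 bases 11 were (-0.34), and of 12 with 900 or more 6 were (-0.33). Across the 80 members the log2 fold change and log2 coding length had a Pearson r of 0.10 and a Spearman rho of 0.14, a description of genes that share the same 6 libraries. Against log2 gene length as given in the table, r was 0.15 and rho 0.26 over the members, 0.31 and 0.26 over the 37 of complex I, and 0.13 and 0.18 over all genes tested. With scaling along gene length, 25 members were called lower and 1 higher at a median of -0.23, while 21.9% of all genes were called lower and 18.8% higher. Exons of 30 members overlap another gene, in 26 cases on the opposite strand, and whether counting used strand was not given in the sources used here. In 3 members over 25% of the exon bases overlap, namely the second *Atp5o* row, *Ndufa13* (with *Tssk6*) and *Ndufb6* (with *Smim27*), and their counts are less certain. Over the 6 libraries *Tssk6* held 38 counts beside 24676 for *Ndufa13*, and *Smim27* 840 beside 9795 for *Ndufb6*. *Ndufa4l2* overlaps *Shmt2* on the opposite strand in 2.92% of its exon bases. It held 369 counts beside 49533 for *Shmt2*, so its counts are less certain too.

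Genes that build or serve the chain were read from lists of known factors, against the 20.5% of all genes called lower and 21.3% called higher with TMM. With TMM scaling, complex I assembly factors had 8 of 17 called lower and none higher (median -0.26), led by *Ndufaf1* (-0.72, adjusted p = 0.00182) and *Ecsit* (-0.70, adjusted p = 0.000353), which act together in building the membrane arm. For complexes II and III 5 of 11 were called lower and 1 higher (median -0.31). Lower were *Uqcc3* (-0.72, adjusted p = 0.00136) and *Uqcc2* (-0.53, adjusted p = 0.00440), both needed for cytochrome b, and higher was *Hccs*, which attaches heme to c-type cytochromes (0.56, adjusted p = 0.00380). For complex IV 12 of 24 were called lower and none higher (median -0.30), with *Cox18*, an insertase, at -0.78 (adjusted p = 0.00733) and *Pet100* at -0.77 (adjusted p = 0.00111). For ATP synthase 4 of 6 were called lower (median -0.38), with *Tmem242* at -0.60 (adjusted p = 0.00104) and *Atpaf2*, a chaperone of the alpha subunit, at -0.48 (adjusted p = 0.00542). With library size only *Ecsit* was the gene of these lists called lower (-0.26, adjusted p = 0.0487), while 5, 2, 5 and 2 genes of the respective lists were called higher, at medians of 0.06 to 0.18. In that fit 6.29% of all genes were called lower and 47.2% higher, at a median of 0.46.

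Among 15 genes of coenzyme Q synthesis, cytochrome c and acyl carrier protein, 7 were called lower and none higher with TMM (median -0.36), and 1 lower and 3 higher with library size only (median 0.09). Over all genes 20.5% were called lower and 21.3% higher with TMM. With library size only 6.29% of all genes were called lower and 47.2% higher, at a median of 0.46. *Coq10b*, a coenzyme Q-binding protein, had 2378, 2178 and 2067 counts in control and 1382, 1480 and 1473 in g*Spns1*-cKO livers. It was lower without overlap under TMM (-1.05, adjusted p = 6.01e-05) and under library size only (-0.61, adjusted p = 0.000793). *Coq3*, a methyltransferase of coenzyme Q synthesis, was at -0.52 (adjusted p = 0.00366). Of 8 genes for other enzymes that feed electrons to coenzyme Q 3 were called lower (median -0.25, against none lower and 1 higher with library size only), with the electron-transferring flavoprotein *Etfb* (-0.82, adjusted p = 0.00984) and its dehydrogenase *Etfdh* (-0.66, adjusted p = 0.00487), which serve fatty acid oxidation. *Coq3*, *Etfb* and *Etfdh* were at -0.08, -0.37 and -0.22 with library size only and were not called.

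None of the 13 subunits encoded by mitochondrial DNA was called with TMM (median 0.14), beside 20.5% of all genes called lower and 21.3% higher. The 13 subunits summed to 60825, 39755 and 56223 CPM in control and 48427, 48258 and 50163 CPM in g*Spns1*-cKO livers, with the lowest and the highest value both in control. With library size only 4 were called higher and none lower, against 47.2% and 6.29% of all genes. The libraries were made from RNA selected with poly-T beads.

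Among 18 transcription factors and coactivators of chain genes, 5 were called lower and 1 higher with TMM (median -0.17), beside 20.5% and 21.3% of all genes. None was called lower and 8 higher with library size only (median 0.28), beside 6.29% and 47.2% of all genes (median 0.46). *Ppargc1a*, the PGC-1 alpha coactivator, had 279, 238 and 265 counts in control and 543, 1257 and 845 in g*Spns1*-cKO livers and was higher (1.30, SE 0.28, adjusted p = 0.00822). *Ppargc1b*, its relative, had 157, 103 and 83 against 97, 58 and 47 counts and was lower with TMM (-1.18, SE 0.34, adjusted p = 0.0192), as was the nuclear receptor *Esrrg* at 144, 72 and 59 against 10, 61 and 23 counts (-1.99, SE 0.61, adjusted p = 0.0326). *Ppargc1a* was also called with library size only (1.75, adjusted p = 0.00160), and *Ppargc1b* and *Esrrg* were not (adjusted p of 0.0923 and 0.0635). *Nrf1* and *Gabpa*, whose motifs are given above, were not called with TMM (0.14 and -0.22).

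Of 7 carriers and channels that export ATP or import phosphate, *Slc25a4*, the adenine nucleotide carrier typical of heart and muscle, was the gene called higher with TMM. With library size only 5 of the 7 were called higher (median 0.62), beside 47.2% of all genes (median 0.46). *Slc25a4* had 185, 195 and 107 counts in control and 567, 764 and 756 in g*Spns1*-cKO livers (1.68, SE 0.18, adjusted p = 8.95e-05), and none of the 7 was called lower in either fit. Of 18 citric acid cycle enzymes outside complex II, 7 were called lower and 2 higher with TMM (median -0.21), beside 20.5% and 21.3% of all genes. With library size only none was called lower and 8 higher (median 0.24), beside 6.29% and 47.2% of all genes (median 0.46). Higher with TMM were the isocitrate dehydrogenases *Idh2* (1.09, adjusted p = 0.000816) and *Idh3a* (0.60, adjusted p = 0.00338), and the largest decreases were in the succinyl-CoA ligase subunits *Suclg1* (-0.54, adjusted p = 0.00921) and *Suclg2* (-0.52, adjusted p = 0.0107). The decreases of *Suclg1* and *Suclg2* were -0.09 and -0.08 with library size only and not called there.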

How the data were processed

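Liver RNA-Seq libraries of 3 g*Spns1*-cKO and 3 control mice were grouped by the sample labels. The authors deposited raw counts per gene in 1 table, and the submitters' processing notes name fastp, HISAT2 2.0.5, featureCounts 1.5.0-p3 and the mm10 build. The strand setting and the annotation release were not given in the sources used here. The table also holds the authors' FPKM values, used here for levels per length only, and a score column with the gene length as deposited. The deposited group mean signal and the log2 fold change and p-value of the authors' own comparison were not used. Of 54532 rows, 98.3% of those found in GENCODE M21 had the same GRCm38 coordinates there.

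Counts were filtered by filterByExpr, scaled by TMM and tested over all 15449 genes kept by edgeR 4.0.16 (R 4.3.3), with the robust quasi-likelihood test, no covariate and Benjamini-Hochberg adjustment at 0.05. CPM are TMM-scaled unless stated, and errors are SD over 3 mice. SE is the size of the log2 fold change over the square root of F. The design is too small for permutation tests to pass 0.05, so p-values rest on edgeR's model. The floor of 3 counts reflects counting error alone. No 2 libraries of a group agreed within sampling noise (chi-square per gene 40.1 to 121). Scripts were tested on simulated data.

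Alternatives were DESeq2 1.42.0, voom of limma 3.58.1, RLE and upper-quartile factors, library size only, other filters, protein-coding rows, a threshold of 0.01, a replicate block and leaving out each library. Scaling along expression level or gene length, with a curve of span 0.3, and scaling by the members' summed counts were added after the data were seen. The members and gene lists were chosen with earlier results of these data known. Named genes are the 3 most changed called members per direction and complex, the highest in FPKM, the closest to no change, alternative isoforms, untested members, *Spns1*, and the 2 most changed called genes per direction of each other list, with markers as sums. *Uqcrfs1*, *Ndufv3*, *Cox7b*, *Atp5j*, *Atp5j2*, *Atp5s*, *Sdhb*, *Nrf1*, *Gabpa* and *Ndufs6b* were named after their values were seen.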

Additional observations from a re-analysis of the deposited data

How the results depend on the processing

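The main limit is the scaling between libraries, since the groups differ in library composition. With library size only, the members' median log2 fold change was 0.0834 (0.0082, 0.28, 0.15, 0.0866 and 0.21 for complexes I to V), with 3 called lower and 11 higher. Of all genes 6.29% were then called lower and 47.2% higher. Below 0 were 75 of the 80 members with TMM and 26 with library size only. Among members named by the rule for named genes that were called in at least 1 of the 2 fits, *Ndufa4* (0.0097), *Sdhd* (0.40), *Uqcrc1* (0.0534), *Cox7a2l* (0.0626), *Cox5a* (0.40), *Atp5b* (0.43) and *Atp5g1* (0.39) changed sign. With upper-quartile factors 20 were called lower, at a median of -0.23 (-0.30, -0.0336, -0.17 and -0.10 for complexes I, II, III and V). Over all genes 2240 of 15449 were called lower with these factors, against 3166 with TMM. With level-dependent scaling 11 were lower and 5 higher, at a median of -0.00019 (-0.16, 0.28, 0.0971, 0.0580 and 0.19), and *Ndufa4* (0.0104), *Sdhd* (0.37), *Uqcrc1* (0.0298), *Atp5a1* (0.39) and *Atp5b* (0.54) changed sign by the same measure. With length-dependent scaling 25 were lower, at -0.23 (-0.34, -0.17 and -0.19 for I, III and IV). With scaling by the chain's sum 6 were lower and 3 higher, at -0.0576 (-0.14, 0.14, 0.00080, -0.0532 and 0.0678). These last 3 scalings, and the means without *Cox7a1*, were chosen after seeing the data. RLE factors, DESeq2, voom, both other filters and protein-coding rows gave 34 to 45 members lower and 1 higher. *Spns1* missed the threshold with library size only (-0.43), upper-quartile factors (-0.74), level-dependent scaling (-0.77) and the chain's sum (-0.59), and it lay between -1.18 and -0.68 without 1 library. At a threshold of 0.01, 20 were lower and 0 higher by edgeR.

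Without 1 library, 20 to 41 members were called lower and 0 to 1 higher, with medians between -0.40 and -0.32. Without g*Spns1*-cKO replicate 3 there were 20, and without control replicate 3 there were 25. Over all genes, 2125 of 15781 and 2581 of 16095 were called lower in these fits, against 3166 of 15449 with every library. In 20 members the call lower was kept in all 6 of these fits. A replicate block gave 34 members lower, all shared with the unblocked fit, 1 higher and a median of -0.36 (-0.44, -0.16, -0.30, -0.36 and -0.23). Same-numbered samples deviated together with correlations of 0.04, 0.03 and -0.03, against -0.065 to 0.032 for different-numbered samples. No pairing by number was seen, but these values cannot show whether littermates shared a number. Over all genes, 3083 were called higher and 3016 lower with the block. Depth limits the tissue-restricted isoforms, 5 of which had at most 12 counts in any library.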
